A study of Zea mays with 36 samples.

Results

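The late risers were 159 probes of a maize cDNA array that were higher in nitrate-treated than in control roots after 24 h and lay near 0 after 30 min. They were selected on measured values out of 7688 probes. In the authors' deposited values, turned to nitrate over control, the mean log2 ratio of 6 replicates had to lie between -0.3 and 0.3 at 30 min and to reach at least 0.6 at 24 h, and at least 5 of the 6 replicates had to be above 0 at 24 h. The late risers made up 2.07% of the probes. Of 219 probes at or above 0.6 at 24 h, 210 also had 5 or more replicates above 0, and of these 159 lay inside the 30 min window, 46 above it and 5 below it.

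Roots of B73 maize seedlings, an inbred line, were grown in germination paper with 5 mM calcium sulfate. Nitrate roots then received 5 mM calcium nitrate and control roots received fresh 5 mM calcium sulfate, for 24 h from day 10 or for 30 min on day 11. Sulfate was thus withdrawn wherever nitrate was given, and the effects of these changes cannot be told apart. Each of the 6 replicates per time was a nitrate and a control sample of separate plants, hybridised together on a 2-colour spotted cDNA array with the dyes exchanged between replicates, so that nitrate was on Cy5 in 3 replicates and on Cy3 in the other 3 at each time. The 12 arrays were read at 3 scanner powers, named Low, Medium and High, which gave 36 scans. Whole roots were extracted, so more RNA per cell and a larger share of the cells that hold a transcript cannot be told apart.

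Nitrate is both the main nitrogen source of maize and a signal. In plants, genes for nitrate uptake and reduction are known to respond early to nitrate without new protein synthesis, whereas later responses can also follow from the products of assimilation, from hormones and from growth. The arrays identify a probe by its cDNA clone, and of the 159 late risers 0 could be paired with a gene name in the table used here (1 of all 7688 probes could). The probes are therefore named by clone, their functions are not given, and a list of 29 nitrate, sulfate and cell type marker genes in 6 groups could be matched to 0 probes.

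The ratios given are log2 ratios of nitrate over control computed from the scanner intensities, averaged over the 3 scans of a replicate and over spots of the same probe. Adjusted p-values are from limma with Benjamini-Hochberg adjustment over all 7688 probes, and a probe was called at an adjusted p under 0.05. Since the deposited ratios of the same scans chose the probes, the ratios at 24 h, at 30 min and their difference describe the late risers and support nothing about them. In the High scans, 3.44% to 9.24% of the spots had a saturated channel, apart from replicate 3 at 24 h with 30.4%. In the Medium scan of that replicate 21.9% had one, against 0.27% to 1.67% in the other Medium scans. The median Cy3 background of the High scans was 1607 to 1701 units in 30 min replicates 5 and 6, against 202 to 757 in replicates 1 to 4.

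At 24 h the mean ratios of the late risers ran from 0.32 to 3.47 with a median of 0.83, beside a median of -0.0057 over all probes. At 30 min they ran from -0.27 to 0.28 with a median of 0.02, beside a median of -0.0048 over all probes. The label of the group thus held on the scanner-based values, although 14 of the 159 were under 0.6 at 24 h on that scale and 145 met the whole rule. The median standard deviation over 6 replicates was 0.43 at 24 h and 0.28 at 30 min, against 0.42 and 0.28 over all probes. The late risers were about as variable as the array as a whole.

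**Figure D1:**
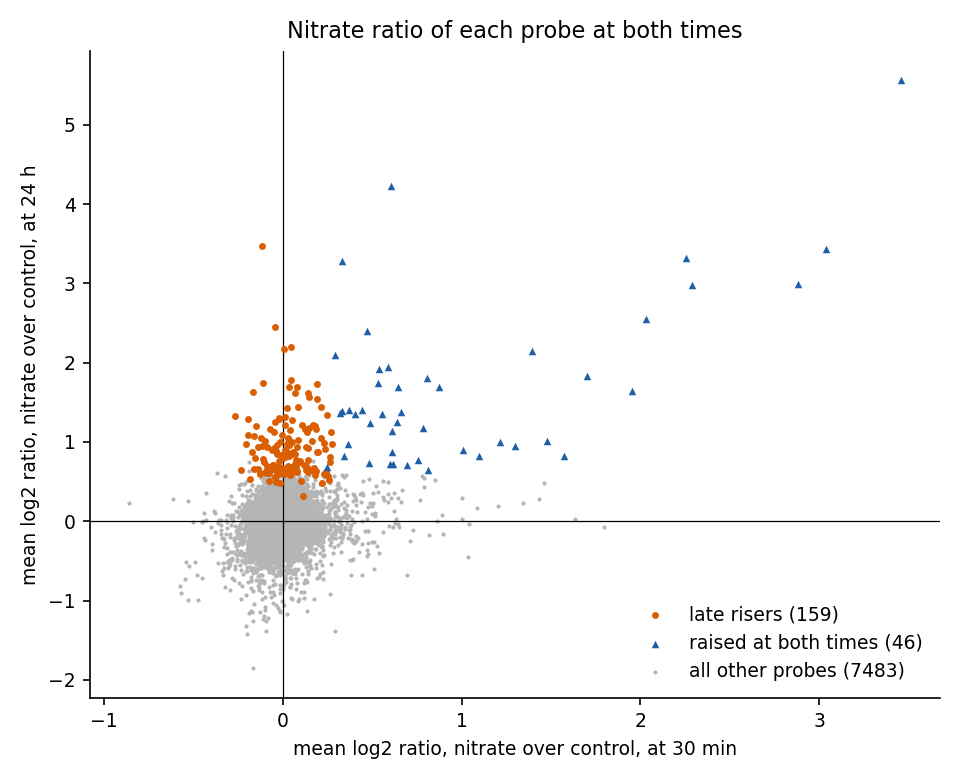
Mean log2 ratio of nitrate over control at 24 h (vertical) and at 30 min (horizontal) of each probe, over 6 replicates per time. The 159 late risers (orange) lie between 0.32 and 3.47 at 24 h and between -0.27 and 0.28 at 30 min, and the 46 probes raised at both times (blue triangles) lie between 0.24 and 3.46 at 30 min.

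Most late risers moved by a modest amount. At 24 h, 4 were over 4-fold higher in nitrate roots, 45 were between 2-fold and 4-fold higher, and 110 were at most 2-fold higher. The series held 81 probes over 2-fold at 24 h, of which 49 were late risers, and 15 over 4-fold. All 6 replicates were above 0 at 24 h for 134 late risers and 5 of 6 for the other 25. For 65 late risers the lowest replicate at 24 h stood above the highest at 30 min, which was so for 93 probes of the series (1.21%). The rule shaped these counts, and nothing is read from them.

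Counted by the fit, 158 late risers were higher at 24 h (7.31% of all probes were), 124 had a higher ratio at 24 h than at 30 min (2.3% of all probes), and 0 differed at 30 min in either direction (1.14% of all probes). At 30 min 4 late risers had an unadjusted p under 0.05. The probe that was not called at 24 h was BM267937, with a mean of 0.49 ± 0.46 (SD, n = 6). These counts also follow from the rule.

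The highest late riser was DV489508. Its ratio at 24 h was 2.60 in the lowest, 3.44 at the median and 4.58 in the highest replicate, and at 30 min -0.38, -0.11 and 0.09. The times were far apart, with every 24 h replicate more than 2 log2 units above every 30 min replicate. The mean at 24 h was 3.47 ± 0.76 (SD, n = 6), or 11.1-fold. In the Medium scans at 24 h the signal above background was 2525 units in the lowest, 3896 in the median and 45975 in the highest nitrate channel, against 217, 411 and 1456 units in control channels. The spans across arrays are wide. They include the Medium scan of 24 h replicate 3, which had nitrate on Cy5 and a median Cy5 signal of 21033 units. In the other Medium scans at 24 h that median was 1584 to 2960 units, so the spans do not measure differences between plants. Even so, the lowest nitrate channel exceeded the highest control channel.

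DV494692 followed, with ratios from 1.71 to 3.55 and a median of 2.41 at 24 h and from -0.40 to 0.22 with a median of -0.03 at 30 min. Its mean was 2.45 ± 0.65 (SD, n = 6). This was a dim spot, above background in 6 of 6 nitrate channels but in 3 of 6 control channels at 24 h, where "above background" means a foreground of at least 1.5 times the local background in the High scan. Its mean was 1.77 in Low scans (3.41-fold) and 3.05 in High scans (8.28-fold), so that neither its fold nor its place among the probes over 4-fold is settled.

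BM074220 was a bright spot. At 24 h its ratio ran from 1.56 to 2.89 with a median of 2.12, and averaged 2.20 ± 0.46 (SD, n = 6), and at 30 min it ran from -0.24 to 0.35 with a median of 0.12. Its nitrate channels gave 7518, 12350 and 57846 units (lowest, median, highest) in the Medium scans at 24 h, against 1462, 2760 and 11424 units in control channels. These spans again include the bright Medium scan of replicate 3. BM338819 averaged 2.18 ± 0.72 (SD, n = 6) at 24 h, from 1.14 to 2.92 with a median of 2.51, and ran from -0.42 to 0.42 with a median of 0.01 at 30 min. For BM338819 the mean was 1.91 in Low scans (3.76-fold) and 2.42 in High scans (5.35-fold), so its place over 4-fold is not settled either. Its control channels were above background in 5 of 6 arrays at 24 h. These 4 probes were those over 4-fold in the mean of all scans, and for each the replicates of the times did not overlap.

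The next 6 late risers lay close together, with mean ratios of 1.63 to 1.78 at 24 h. BG842769 had the narrowest replicates among them, from 1.51 to 2.08 with a median of 1.78, and averaged 1.78 ± 0.20 (SD, n = 6), whereas at 30 min it ran from -0.29 to 0.30 with a median of 0.06. Its value averages 2 spots, with standard deviations of 0.21 and 0.32 at 24 h, whereas the others were single spots. The mean of BG842769 was 1.48 in Low and 1.99 in High scans. BG841461 was about as tight, from 1.27 to 1.94 with a median of 1.70 at 24 h and from -0.17 to 0.20 with a median of 0.05 at 30 min, and averaged 1.69 ± 0.24 (SD, n = 6). The order of these 6 probes by mean is within their replicate spread.

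BM073706 averaged 1.74 ± 0.50 at 24 h, from 1.13 to 2.22 with a median of 1.78, and ran from -0.69 to 0.44 with a median of -0.13 at 30 min. DY576231 averaged 1.74 ± 0.55, from 0.99 to 2.55 with a median of 1.68, and ran from -0.18 to 0.44 with a median of 0.17 at 30 min. DY576234 averaged 1.70 ± 0.68, from 0.79 to 2.50 with a median of 1.63, and ran from -0.18 to 0.40 with a median of -0.01 at 30 min. For all 3 the replicates of the times did not overlap, and the standard deviations are over 6 replicates. DV550929 had the widest range of these 6, from 0.63 to 2.48 with a median of 1.63 at 24 h and from -0.60 to 0.07 with a median of -0.11 at 30 min, and averaged 1.63 ± 0.66 (SD, n = 6).

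**Figure D2:**
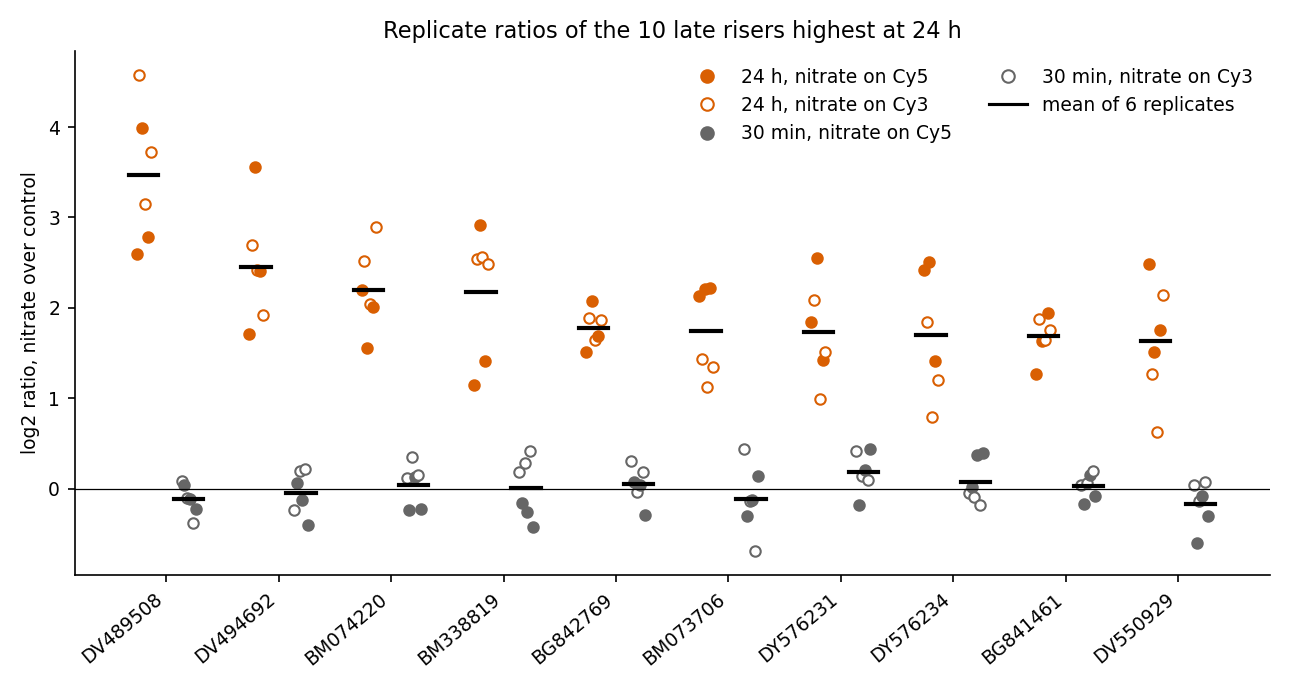
Log2 ratio of nitrate over control in each replicate of the 10 late risers with the highest mean at 24 h, at 24 h (orange, left) and 30 min (grey, right), with a bar at the mean of 6 replicates. Filled points had nitrate on Cy5 and open points nitrate on Cy3, and for each of the 10 probes every 24 h point lies above every 30 min point.

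The shift at 24 h was spread over the replicates. The median of the 159 late risers was 0.75 in the lowest replicate and 0.96 in the highest, and 95% to 98.7% of them were above 0 in each replicate, where between 49.4% and 51.8% of all probes were. At 30 min the medians of the replicates ran from -0.05 to 0.09, and between 43.4% and 64.2% of the late risers were above 0. The median of no 24 h replicate stood apart from those of the other 5. By scan power the median of the late risers at 24 h was 0.86 in Low, 0.84 in Medium and 0.80 in High scans. Single late risers moved far more with scan power: for 18 of the 159 the Low and High means differed by over 0.5, and 9 of these had a saturated High scan at 24 h. DV492914 gave 1.44 in Low and 0.05 in High scans, DV943050 1.86 and 0.48, DV491909 1.48 and 0.17, DV490508 2.06 and 0.87, and DV492201 1.26 and 0.14. These 5, named after their values were seen, were saturated in the High scan of 6 of 6 arrays at 24 h. Low and High means correlated across the 159 late risers at Pearson's r = 0.70 and Spearman's rho = 0.61, as a description over probes that share the arrays.

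**Figure D3:**
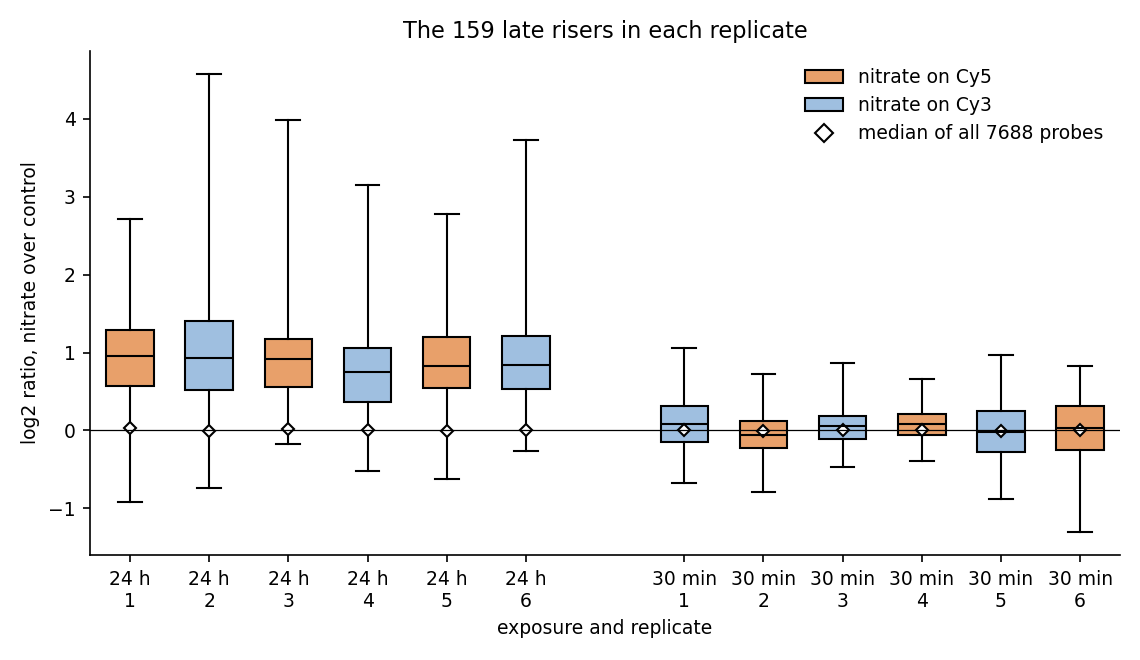
Log2 ratios of the 159 late risers in each of the 6 replicates at 24 h and at 30 min. Boxes span the quartiles with the median as a line, whiskers reach the lowest and highest probe, colour gives the dye of the nitrate sample, and diamonds mark the median of all probes. Medians lie between 0.75 and 0.96 at 24 h and between -0.05 and 0.09 at 30 min.

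A ratio cannot say whether a transcript gained in nitrate roots or was lost from control roots between the times. The mean brightness of both channels of a spot, on the log2 scale, was used to describe this. The rule used the difference of the channels and not their mean. Yet the mean holds the same nitrate channels that gave the selected ratios, so the brightness counts are not independent of the selection. After loess and quantile normalization of brightness between scans, it was compared at 24 h and at 30 min with limma. The times were on different arrays, so that array batch and time cannot be told apart here, and every change is relative to the bulk of the probes.

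At 24 h 12 of the 159 late risers were brighter than at 30 min, or 7.55%, where 0.455% of all probes were, and 0 were dimmer, where 0.572% of all probes were. At an unadjusted p under 0.05, 56 of the late risers were brighter and 5 dimmer, where 6.10% of all probes were brighter and 5.58% dimmer. The late risers supplied 12 of the 35 probes of the series called brighter. The median brightness difference of the late risers was 0.28, and 123 of 159 lay above 0 (77.4%), against a median of 0.02 and 53.1% over all probes. The 46 probes raised at both times are those above the 30 min window, whether or not they were called at 30 min. Of them, 6 were brighter at 24 h (13%) and 3 dimmer (6.52%), and their median was -0.02 with 23 above 0. The difference between these groups was not tested.

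The count of 12 moved with single arrays. It was 6 without 30 min replicate 2 and also without 24 h replicate 2, 7 without 30 min replicate 3, and 15 without 24 h replicate 1. Without 30 min replicates 5 and 6, the arrays with the high Cy3 background, it was 34, and all of the 12 were among them. With 24 h replicate 3, the array with many saturated spots, taken from its Low scan alone, it was 17. The counts over all probes in these fits are not given here, so these moves are not read as a trait of the late risers. Of the 12 late risers, 6 were called in each of the 12 fits that left out 1 replicate.

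Those 6 were DV489508, DV494692, DV490314, BG841461, DV551158 and, with a pair of spots that disagreed in ratio, BG874123. DV489508 was 2.31 brighter at 24 h (log2, SE 0.14, adjusted p = 1.85e-06 by limma), the largest brightness difference of any late riser and of any probe in the series. Its level in nitrate roots was 12.27 ± 0.50 at 24 h and 8.17 ± 0.26 at 30 min, and in control roots 8.80 ± 0.34 and 8.29 ± 0.17 (log2, SD, n = 6). Nitrate roots at 24 h thus stood apart from the other 3 groups, whose means lay between 8.17 and 8.80.

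DV494692 was 1.28 brighter (SE 0.14, adjusted p = 0.000761 by limma). Its level in nitrate roots was 9.67 ± 0.51 at 24 h and 7.15 ± 0.23 at 30 min, and in control roots 7.22 ± 0.36 and 7.19 ± 0.13 (log2, SD, n = 6). BG841461 was 0.72 brighter (SE 0.12, adjusted p = 0.0117 by limma), with 11.87 ± 0.17 and 10.32 ± 0.13 in nitrate roots and 10.18 ± 0.29 and 10.29 ± 0.16 in control roots. In both the control level differed between the times by less than its spread over replicates. For DV494692 this says little, since control channels were above background in 3 of 6 arrays at 24 h and 4 of 6 at 30 min. Its nitrate channels were above background in 4 of 6 arrays at 30 min, so the size of its gain is uncertain too.

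DV490314, DV551158 and the other late risers called brighter that were not named by rank, by the rule's limits or by paired spots were picked out after their values were seen. DV490314 was 1.16 brighter (adjusted p = 0.00246 by limma), with a nitrate level 1.68 and a control level 0.64 higher at 24 h. DV551158 was 0.85 brighter (adjusted p = 0.015 by limma), with a nitrate level 1.53 and a control level 0.17 higher, and it was saturated in the High scan of 6 of 6 arrays at 24 h. BM073705, DV489955, DV550281, BG841718, DV550674 and DY576285 were between 0.58 and 1.03 brighter and lost the call in 4 to 9 of the 12 fits that left out 1 replicate.

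BG874123 needs care, since its probe value averages 2 spots that disagreed. Whether both spots hold the same clone was not tested, so its ratio, its brightness and its place among the late risers are uncertain. The first spot had a mean ratio of 1.83 at 24 h with 6 of 6 replicates above 0, and the other 0.21 with 3 of 6 above 0. The probe's standard deviation of 0.07 over replicates, the smallest among the late risers, is that of an average in which opposite dye effects of the spots offset each other: with nitrate on Cy5 the spots gave 1.31 and 0.70, and with nitrate on Cy3 2.35 and -0.28. The brightness difference of the probe was 1.18 (adjusted p = 0.000982 by limma), and its spots gave 1.30 and 1.05. Both spots were thus brighter at 24 h, and 1 of them had most of the nitrate ratio.

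Split into channels, the level in nitrate roots was higher at 24 h for 151 of 159 late risers (52.1% of all probes), with a median change of 0.67. The level in control roots was lower at 24 h for 113 of 159, or 71.1% (47.4% of all probes), with a median change of -0.16. Because the rule asks for a ratio that grows with time, these directions are in part fixed by it. They describe how the change divided between the channels.

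The classes of size are cut by the 24 h ratio that chose the late risers, so the gap between the channels has to widen with class, and no test was made of it. In the 4 late risers over 4-fold the median change between the times was 2.39 in nitrate roots and 0.05 in control roots, and 2 were called brighter. In the 45 between 2-fold and 4-fold it was 1.06 and -0.13, with 8 called. In the 110 at most 2-fold it was 0.52 and -0.17, with 2 called. Across the 159 late risers the brightness difference correlated with the ratio at 24 h at Pearson's r = 0.56 and Spearman's rho = 0.45, and across all 7688 probes at 0.20 and 0.16, as a description over probes that share the same arrays.

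In some late risers the control level moved further than the nitrate level or nearly as far. BM073849 had the lowest brightness difference, -1.01 (SE 0.36, adjusted p = 0.258 by limma). Its level was 8.69 ± 0.55 at 24 h and 9.57 ± 0.93 at 30 min in nitrate roots, and 8.21 ± 0.72 and 9.35 ± 0.68 in control roots (log2, SD, n = 6). Its ratio at 24 h ran from -0.27 to 1.00 with a median of 0.53, and its mean of 0.48 ranked 158 of the 159. BG841095, a mean of 2 spots, had a control level lower by more than its nitrate level was higher, at -0.70 and 0.50. Its spots differed in this. In 1 spot the control level changed by -0.92 and the nitrate level by 0.24. In the other they changed by -0.48 and 0.76, so there the nitrate level moved further. BM073706, one of the 10 highest, had a nitrate level 1.06 higher and a control level that dropped by 0.80.

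**Figure D4:**
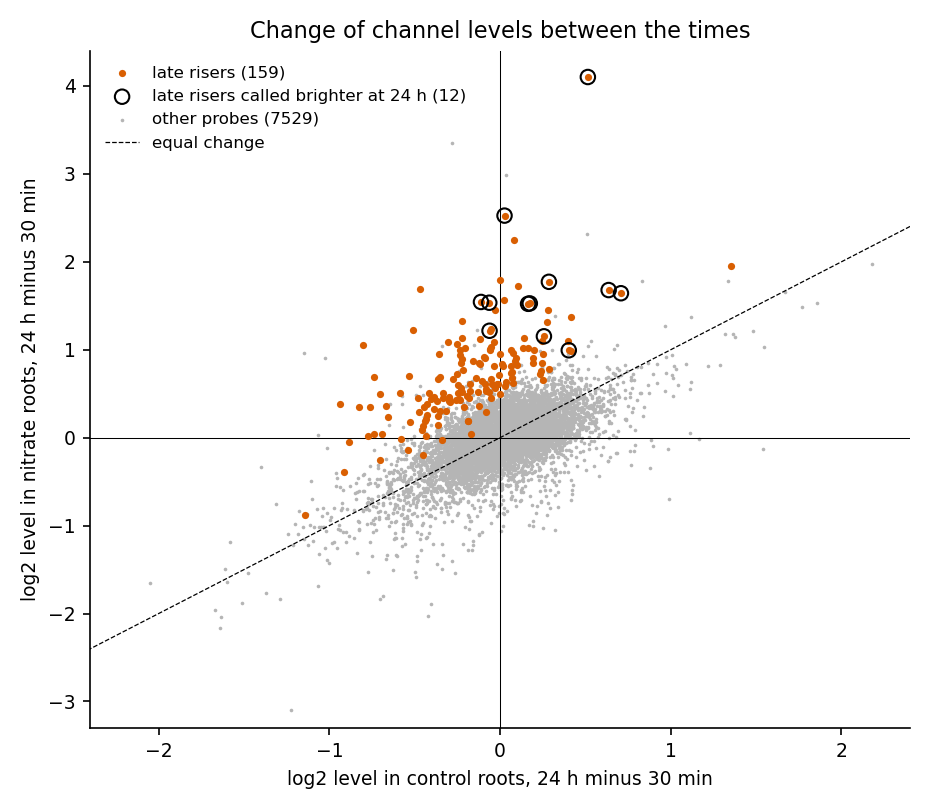
Change of the log2 channel level between the times, 24 h minus 30 min, in nitrate roots (vertical) against control roots (horizontal). Orange points are the 159 late risers, grey points the other probes, and circles the 12 late risers called brighter at 24 h. The late risers lie above the dashed line of equal change, and DV489508 is the circled point at 4.10 and 0.51.

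The dye effect, the part of a log ratio that goes with Cy5 against Cy3 whatever the treatment, was called for 58 of 159 late risers, or 36.5% (43.6% of all probes). It favoured Cy5 in 25, or 15.7% (21.1% of all probes), and Cy3 in 33, or 20.8% (22.5% of all probes). These shares were near or below those of the whole array. The ratio at 24 h was above 0 with nitrate on either dye in 157 of 159 late risers, which the rule nearly fixes, since at most 1 deposited replicate could lie at or below 0.

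The dye nevertheless changed the size read from a single orientation. The 25 late risers with a Cy5 effect had a median ratio at 24 h of 1.25 with nitrate on Cy5 and 0.38 with nitrate on Cy3. The 33 with a Cy3 effect had 0.43 and 1.42. The 101 without a called effect had 0.89 and 0.74. The mean over 3 replicates of each orientation, used throughout, was 0.77, 0.88 and 0.79 at the median of these classes.

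The widest gap between orientations among the late risers was that of BM079630, with 0.33 with nitrate on Cy5 and 2.03 with nitrate on Cy3 (dye effect -0.50, adjusted p = 0.00787 by limma). Its replicates at 24 h ran from -0.10 to 2.90 with a median of 1.04, and its mean was 1.18 ± 1.10 (SD, n = 6). BG841138 was alike, from -0.30 to 2.43 with a median of 1.39 at 24 h, and its 2 spots gave 1.34 and 1.06. The late risers whose mean was below 0 in an orientation were BM334563, with -0.21 on Cy5 and 1.46 on Cy3, and BM073991, with -0.02 and 1.22. Both were named after their values were seen.

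**Figure D5:**
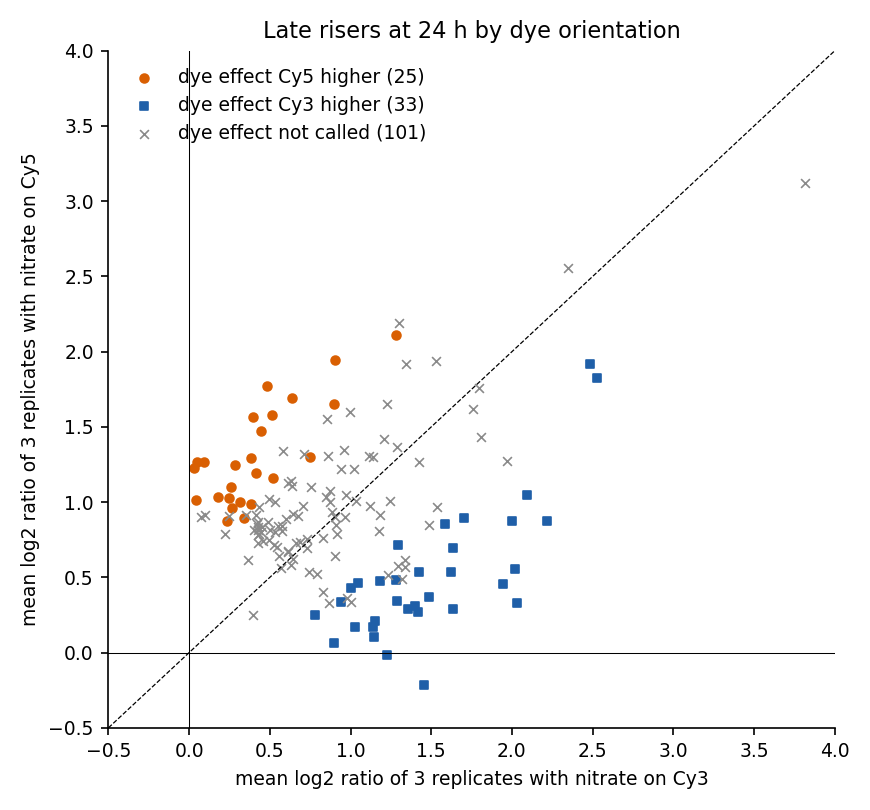
Mean log2 ratio at 24 h of the late risers over the 3 replicates with nitrate on Cy5 (vertical) and the 3 with nitrate on Cy3 (horizontal), with the line of equal values dashed. Orange circles (25) had a called Cy5 effect, blue squares (33) a called Cy3 effect, and crosses (101) no called effect. Of the 159 probes, 157 lie above 0 on both axes.

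Of the late risers, 7 were printed as 2 spots. The rule used the mean of both, so their ratios are a description. For BG842769 the spots gave 1.78 and 1.78 at 24 h, for BG841095 1.24 and 1.18, and for BG841837 1.55 and 1.01. BG841923 gave 0.85 and 0.81, and BG842961 0.93 and 0.89, both named after their values were seen. The gap between spots was widest in BG874123.

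The 2 spots of a probe did not always share a dye effect. In BG842961 the first gave 1.61 with nitrate on Cy5 and 0.24 with nitrate on Cy3, and the other 0.26 and 1.52, while their means were alike. In BG842961 the mean over both orientations was thus more alike between the spots than either orientation alone.

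Late risers came from most of the array. The clone identifiers place them on 29 of 32 printing plates, with at most 18 on a plate. By the plate names, 65 of 1747 probes on plates named re-array were late risers (3.72%), 81 of 5057 on plates named stan (1.60%) and 13 of 884 on plates named Whole (1.47%). The plate names are not explained in the sources used here.

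Most late risers were measured above background. At 24 h 151 of 159 were above background in 6 of 6 nitrate channels and 151 in 6 of 6 control channels (89.3% and 93.1% of all probes). At 30 min the counts were 135 in nitrate and 144 in control channels, and the shares of all probes were not counted. DV492424, the lowest of the group at 24 h, was above background in 1 of 6 nitrate and 0 of 6 control channels, so that no fold is given for it. Saturation reached at least 1 High scan at 24 h in 66 late risers and 2 or more in 20. In the High scan of 24 h replicate 3, 40.4% of the spots of late risers were saturated, where 30.4% of all spots were. In a Low scan 1 late riser, DV492914, was saturated.

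Around the limits of the rule there was no gap. On the deposited scale the members just inside the 24 h limit were AW017951 at 0.602 and BM350004*CB351031 at 0.606, and the probes just outside were BG842837 at 0.596 and DV491407 at 0.593. At the upper 30 min limit BQ619021 lay inside at 0.286, with 1.18 at 24 h, and BM333345 lay outside at 0.319, with 1.41 at 24 h. At the lower limit DY576285 lay inside at -0.298, with 1.45 at 24 h, and DV489768 lay outside at -0.305, with 0.912 at 24 h. On the scanner-based values DV489768 averaged -0.15 at 30 min and 0.40 at 24 h. There it lay inside the 30 min window and below the 24 h limit. A further 7 probes met both limits but had 3 or 4 replicates above 0 at 24 h.

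Members near the limits were measured with different precision. AW017951 ran from -0.73 to 1.44 with a median of 0.59 at 24 h, and BM350004*CB351031 from 0.38 to 0.89 with a median of 0.51. DY576285 was tight, from 1.08 to 1.50 with a median of 1.40 at 24 h, and from -0.66 to 0.21 with a median of -0.29 at 30 min. BQ619021 ran from 0.94 to 1.61 with a median of 1.04 at 24 h and from -0.17 to 0.53 with a median of 0.32 at 30 min. The mean of AW017951 was smaller than its replicate standard deviation of 0.77, and that of the other 3 was larger.

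The 46 probes raised at both times passed the same criteria at 24 h and lay above the 30 min window. At 30 min the fit called 30 of them (65.2%), where 1.14% of all probes were called. The name of these probes follows the window and not a call. Their ratios at 24 h ran from 0.65 to 5.56 with a median of 1.37, and at 30 min from 0.24 to 3.46 with a median of 0.64. The late risers thus included the smaller changes at 24 h, with a median of 0.83, although DV489508 at 3.47 was above most of the 46. The comparison is a description, since the rule used these ratios.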

How the data were processed

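Per the labels, 12 arrays of separate plants were scanned 3 times each. The deposited files hold, per the file headers, foreground and background intensity of 7888 spots in both channels, and the authors' normalized values per channel. These deposited values behaved as the natural log of background-subtracted signal, and the final value was Cy5 minus Cy3. The series table held the same values (largest gap 5e-10), and its scan medians lay between -0.0324 and 0.0595, so that scale and direction were settled from the files. The centring of the scans, the scanner and the image software are named in no source used here. The authors' deposited natural log values, divided by the natural log of 2, were used to choose the late risers and as an alternative.

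Analyses used limma 3.58.1 in R 4.3.3. Background was corrected by normexp (offset 50) on foreground means and median local background. Ratios were normalized by loess, scan by scan, turned to nitrate over control and averaged over scans and spots, which gave 7688 probes. Saturated spots (a channel median of 65535) were kept. The ratio fit had coefficients for 30 min, 24 h and dye, with 9 residual degrees of freedom. Brightness was fitted with time and dye orientation. Loess and quantile normalization remove any shift common to most probes. The number of arrays limits the precision. The scripts were tested on simulated data. The members and gene lists were chosen with earlier results of these data known. Probes were named by rank at 24 h (the first 10), nearness to the limits, extremes of brightness and dye orientation, and printing as 2 spots (at most 5). Any others, including single exceptions to a count, were picked after their values were seen. Alternatives covered normalization, background, scan power, saturation, dye, array weights, dim probes, left-out replicates and the rule's limits.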

Additional observations from a re-analysis of the deposited data

Results flagged for a closer look

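Among the replicate ratios of the probes named by rule and the medians of the late risers, 42 sets of 6 replicates were searched for a value far from the other 5 by Dixon's criterion, and 1 was found, where chance gives about 1 in 20. BQ619021 at 24 h had a ratio of 1.61 in replicate 2, and the other 5 replicates lay between 0.94 and 1.16. All 6 were above 0.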

How the results depend on the processing

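The late risers called at 24 h numbered 145 to 159 over 24 alternatives (158 in the fit reported) and those called at 30 min 0 in each of them, and over 21 alternatives their median ratio at 24 h stayed between 0.78 and 0.89. The count with a higher ratio at 24 h than at 30 min, 124 as reported, was 78 from High scans alone, 67 when the model left out the dye and 81 at an adjusted p under 0.01. The 12 late risers brighter at 24 h became 4 at an adjusted p under 0.01, 7 with a replicate block, 34 from 30 min replicates 1 to 4 (an alternative chosen after seeing the data) and 6 to 15 with 1 replicate left out. The counts over all probes in these alternatives are not given here. Over 23 alternatives the median brightness difference of the 159 late risers kept its sign, from 0.24 to 0.31. Replicate numbers were shared by separate plants, and residual correlations of same-numbered samples ran from -0.201 to 0.574 for ratios and from -0.101 to 0.502 for brightness, so that the numbers were not taken as pairs. For ratios 3 of 12 samples, and for brightness 7 of 12, were nearest to their own number, a hint from the data. With the replicate block 135 late risers had a higher ratio at 24 h, and 6 of the 12 brighter ones were still called; of those called in every fit that left out 1 replicate, BG841461 was not (limma adjusted p = 0.0547). The dye effect was called for 43 to 75 late risers over 17 alternatives. With a 24 h limit of 0.7 the rule kept 105 probes, and over its other 19 alternatives 135 to 237. DV494692, dim in control roots, gave 1.77 in Low scans, and BG842769 1.48 in Low and 1.99 in High scans. The cause of these moves was not tested. Signals near background limit the dim probes and saturation the bright ones.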
